A study of Mus musculus with 24 samples.

Results

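Epididymal white adipose tissue of congenic mice was compared with that of B6 mice on 6 arrays of the 24 in the series. The members were the 3 samples titled congenic adipose and the 3 titled B6 adipose, and each gene and exon feature on the array was compared. The series set B6.S-2 congenic mice against B6 mice in whole brain, liver, epididymal adipose tissue and gastrocnemius muscle, with 3 biological replicates per genotype and tissue per its design text. Its title places the work in a search for candidate genes of body weight and adiposity by their position.

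The congenic strain carries DNA of SPRET/Ei, an inbred strain of Mus spretus, on distal chromosome 2, on a C57BL/6J background. The B6 mice are named in the titles as B6, the abbreviation for that background strain. The labels give neither the ends of the donor segment nor the age of the sampled mice, and no agent was given. Genotype rests on the title and source name, because the treatment field names a congenic mouse for every sample, those titled B6 included. The growth text mentions chow and a high fat diet for a group of congenic males and assigns no sample to either, so diet and genotype cannot be told apart here. Every gene of the donor segment differs in origin between the groups, and the array probes lie largely on that chromosome. The array held 341 genes, 333 of them on chromosome 2 between bases 121896708 and 167412296 of the deposited files (their build was not given in the sources used) and 8 elsewhere. These were measured through 3099 exon features, an exon feature being an exon or part of one with its own set of probes. Values are log2 of normalized fluorescence intensity. Differences are congenic minus B6 in log2 units, with 3 arrays per genotype. Values after ± are standard errors from limma, whose spread was shared over the 8 groups of all 24 arrays and not taken from the adipose arrays alone.

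White adipose tissue stores triglyceride in large lipid droplets of adipocytes and secretes leptin. The epididymal depot lies against the epididymis, the duct in which sperm mature, and close to the seminal vesicles. The epididymis secretes cystatins, beta-defensins and protease inhibitors of the WFDC family, many of whose genes lie in clusters on mouse chromosome 2, and the seminal vesicle secretes the Svs proteins of the seminal plasma.

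The 6 arrays had median raw intensities between 1075 and 2314 and correlated within genotype at 0.963 to 0.983 over raw log2 values. All 6 shared a slide with the 6 muscle arrays, and each of its well rows A, B and C held 1 congenic and 1 B6 adipose array. The tissue label was checked against muscle on that slide. Adig was higher in adipose than in muscle by 0.46 ± 0.06 (limma, adjusted p = 1.14e-06), Pltp by 0.59 ± 0.08, Apmap by 0.65 ± 0.09 and leptin (Lep) by 0.32 ± 0.11 (adjusted p = 0.0359). The muscle troponin gene Tnnc2 was lower in adipose tissue, at a log2 difference of -4.76 ± 0.06. Apmap was not on the list of adipocyte genes. The 7 genes of that list had a median difference, adipose minus muscle, of -0.047. Acss1 and Acss2 on the list were lower in adipose tissue than in muscle, at -0.37 ± 0.07 and -0.23 ± 0.05. Fitm2 and Lpin3 on it did not pass. Over all genes, 15.8% were called higher and 20.2% lower in adipose tissue than in muscle. Of genes of the families that the epididymis secretes, 3 of 8 cystatins, 4 of 6 beta-defensins and 3 of 9 WFDC and Kunitz inhibitors were higher in adipose tissue, and 1 of each list was lower. The higher ones included Defb20 at 3.84 ± 0.17, Spint4 at 3.64 ± 0.16, Cst11 at 3.62 ± 0.13 and Cst12 at 2.48 ± 0.12. The lower ones were Cstdc1 at -0.21 ± 0.08, Defb36 at -0.18 ± 0.06 and Wfdc3 at -0.18 ± 0.06, and the other 10 did not pass. Cst11 stood at 12.96, 13.17 and 13.06 on congenic adipose arrays 1, 2 and 3 and at 13.10, 12.96 and 13.06 on B6 adipose arrays 1, 2 and 3. This gene was bright on all 6 arrays and the genotypes overlapped. Congenic array 1 and B6 array 2 held an identical value, as did congenic array 3 and B6 array 3. Quantile normalization gives all arrays the same values by rank, and its part in this closeness was not tested.

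In congenic adipose tissue 4 genes fell and 1 rose (limma, Benjamini-Hochberg adjusted p under 0.05 over 341 genes). The 4 that fell were Serinc3, Adig, Defb29 and Cstdc2, and Zfp937 rose. The 5 are 1.47% of the genes tested, with 1.17% called lower and 0.293% called higher. At an unadjusted p under 0.05, 28 genes differed, which is 8.21%. Of the 341 genes, 10 differed by more than 0.5 and 4 by more than 1, and the median standard error was 0.092. By sign, 174 genes were higher and 167 lower in congenic tissue, and the median of the signed differences was 0.0019. Quantile normalization over all arrays tends to hold that median near 0 and the signs near even, so neither measures the size of the differences.

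The promoters of 2 of the genes that fell are shown, Adig as an adipocyte gene and Serinc3 as the gene with the smallest p. Each runs 5′ to 3′ on the gene's strand, from 250 bases before to 50 bases after the RefSeq start, in GRCm38.p6. Capitals mark matches to CCAAT or its reverse complement ATTGG and, in Adig, to AGGTCA, whose reverse complement is TGACCT.
Adig, chr2:158502362-158502661, plus strand: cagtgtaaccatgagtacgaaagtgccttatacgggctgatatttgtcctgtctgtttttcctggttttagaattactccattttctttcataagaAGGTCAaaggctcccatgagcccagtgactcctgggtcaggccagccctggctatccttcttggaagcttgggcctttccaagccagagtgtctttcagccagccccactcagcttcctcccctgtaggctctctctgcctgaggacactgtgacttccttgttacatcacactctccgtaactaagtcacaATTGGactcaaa
Serinc3, chr2:163645094-163645393, minus strand: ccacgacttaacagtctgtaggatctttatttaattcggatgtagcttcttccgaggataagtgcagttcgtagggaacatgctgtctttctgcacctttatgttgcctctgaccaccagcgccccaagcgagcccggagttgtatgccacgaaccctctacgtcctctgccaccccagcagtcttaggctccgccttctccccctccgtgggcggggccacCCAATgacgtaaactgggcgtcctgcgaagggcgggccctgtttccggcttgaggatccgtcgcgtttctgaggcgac
All 5 called genes had a promoter in the table. CCAAT, on either strand, was found in 3 of the 5, namely Serinc3, Adig and Zfp937, and in 37.4% of the 32851 promoters of this length. TATAAA, on either strand, was found in 0 of the 5 and in 13.6% of all promoters. AGGTCA, the half-site of nuclear receptors such as PPAR-gamma, was searched on either strand after the Adig sequence had been seen. It was found in Adig, 154 bases before the start, in 0 of the other 4 called genes, and in 16.3% of all promoters. These matches are of letters in the reference strain, and the SPRET/Ei sequence was not used here.

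Adig encodes adipogenin, a small membrane protein of adipocytes that acts at lipid droplets. It stood at 10.89, 10.92 and 10.83 on congenic arrays 1, 2 and 3 and at 11.24, 11.21 and 11.36 on B6 arrays 1, 2 and 3. Each congenic value lay below each B6 value, with a tight spread in both genotypes. Adig fell by 0.39 ± 0.08 in congenic tissue (limma, adjusted p = 0.0133), a 1.31-fold difference. In whole tissue, fewer adipocytes and less Adig RNA per adipocyte cannot be told apart. Whether bases that differ between the strains under the probes bear on Adig or the other called genes was not tested. Adig was measured by 3 features, each lower in congenic tissue, at -0.19, -0.44 and -0.49 in 5′ to 3′ order. None of the 3 passed over all features, and 2 of the 3 had groups that did not overlap, beside 6.81% of all features lower without overlap. Within well rows A, B and C the difference was -0.53, -0.30 and -0.35. The call held with the row as a block, and was lost with the replicate number as a block (limma, adjusted p = 0.0746). Both blocks group the 6 adipose arrays alike and gave -0.39. They differ in how the arrays of other tissues are grouped, with 12 and 8 residual degrees of freedom in that order. The call was also lost with only the 6 adipose arrays (-0.42, limma, adjusted p = 0.0665).

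The other 6 adipocyte genes listed did not pass with all 6 arrays, and the median of the 7 was -0.021. Pltp, the phospholipid transfer protein that exchanges phospholipids between lipoproteins, came nearest. It stood at 10.33, 10.72 and 10.50 on congenic arrays 1, 2 and 3 and at 10.08, 9.995 and 10.11 on B6 arrays 1, 2 and 3. The congenic values were all above the B6 values, and the difference of 0.45 ± 0.12 missed the threshold (limma, adjusted p = 0.0616). Without congenic replicate 1 the difference was 0.54 and passed (adjusted p = 0.0270). It did not pass without any other adipose array, at 0.36 without congenic replicate 2 (limma, adjusted p = 0.308) and 0.41 without B6 replicate 2 (adjusted p = 0.334). With only the 6 adipose arrays it was 0.53 and did not pass (limma, adjusted p = 0.243). All 16 features of Pltp were higher by sign in congenic tissue, 9 of them with groups that did not overlap, against 5.87% of all features higher without overlap. Leptin stood at 9.10, 9.12 and 9.23 on congenic arrays 1, 2 and 3 and at 9.18, 9.19 and 9.20 on B6 arrays 1, 2 and 3, so the genotypes overlapped.

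Serinc3 encodes a membrane protein with many spans, of the serine incorporator family. It stood at 10.45, 10.98 and 10.78 on congenic arrays 1, 2 and 3 and at 11.92, 11.61 and 11.47 on B6 arrays 1, 2 and 3. The groups were apart, with congenic replicate 1 the lowest and B6 replicate 1 the highest of the 6. Serinc3 fell by 0.93 ± 0.15 (limma, adjusted p = 0.00132), a 1.90-fold difference. The difference was -0.69, -0.62 and -1.47 within well rows A, B and C, with the widest gap in row C, which held both replicates numbered 1. Without congenic replicate 1 it was -0.70 and still passed (adjusted p = 0.0185). Serinc3 was the 1 gene that passed in each of the 20 alternative settings.

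Defb29, a beta-defensin gene of the epididymis, stood at 10.33, 10.37 and 10.22 on congenic arrays 1, 2 and 3 and at 10.71, 10.78 and 10.67 on B6 arrays 1, 2 and 3. The groups did not overlap and the spread within each was small. Defb29 fell by 0.41 ± 0.09 (limma, adjusted p = 0.0139), with -0.45, -0.41 and -0.38 in rows A, B and C. Its call was lost without congenic replicate 3, B6 replicate 1 or B6 replicate 2, at values of -0.37, -0.42 and -0.38 in that order. Of 6 measured beta-defensin genes it was the 1 that passed, the median of the 6 was -0.027, and 3 were higher and 3 lower by sign. Defb20, the brightest of them in adipose tissue, stood at 13.11, 13.16 and 12.70 on congenic arrays 1, 2 and 3 and at 13.14, 12.84 and 12.65 on B6 arrays 1, 2 and 3.

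Cstdc2, a cystatin-domain gene, was bright in adipose tissue, 2.94 ± 0.14 above muscle. It stood at 11.92, 12.38 and 11.89 on congenic arrays 1, 2 and 3 and at 13.48, 12.79 and 12.63 on B6 arrays 1, 2 and 3. The groups did not overlap, and B6 replicate 1 stood above the other B6 arrays. Cstdc2 fell by 0.91 ± 0.20 (limma, adjusted p = 0.0187), a 1.87-fold difference, with -0.74, -0.41 and -1.57 in rows A, B and C. The call was lost with the row as a block, and without congenic replicate 1 (-0.84, adjusted p = 0.0707), congenic replicate 3 (-0.83) or B6 replicate 1 (-0.64). It was also lost with only the 6 adipose arrays (-1.19, limma, adjusted p = 0.0665) and with the 12 arrays of adipose and muscle (-0.95, adjusted p = 0.243). Of 8 measured cystatin genes it was the 1 that passed, and the median of the 8 was -0.069. The nearby cystatin-domain gene Cstdc1 did not pass at -0.35 ± 0.11 (adjusted p = 0.210), and Cst12 did not at -0.35 ± 0.17. Whether the amount of epididymis in the samples bears on Cstdc2 or Defb29 was not tested. Of the other genes of these families above muscle, Cst11 differed between the genotypes by 0.023, Defb20 by 0.12 and Spint4 by 0.37 ± 0.23. Wfdc15b differed by 0.32 ± 0.14, Eppin by 0.18 ± 0.12, Defb22 by 0.14 ± 0.13 and Defb21 by -0.26 ± 0.13. None of these passed with all arrays.

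Zfp937, a zinc finger gene, stood at 9.26, 9.27 and 9.23 on congenic arrays 1, 2 and 3 and at 8.68, 8.76 and 8.75 on B6 arrays 1, 2 and 3. The groups were apart by more than their spread. Zfp937 rose by 0.52 ± 0.13 (limma, adjusted p = 0.0350), with 0.48, 0.51 and 0.58 in rows A, B and C. It was measured by 1 feature, of 14 probes, and that feature did not pass over all features (adjusted p = 0.164). The call was lost with the row as a block and without any 1 of the 6 adipose arrays, while the difference ran from 0.38 to 0.64 over the alternatives that measured it. The other 8 of 9 measured zinc finger genes did not pass.

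**Figure D1:**
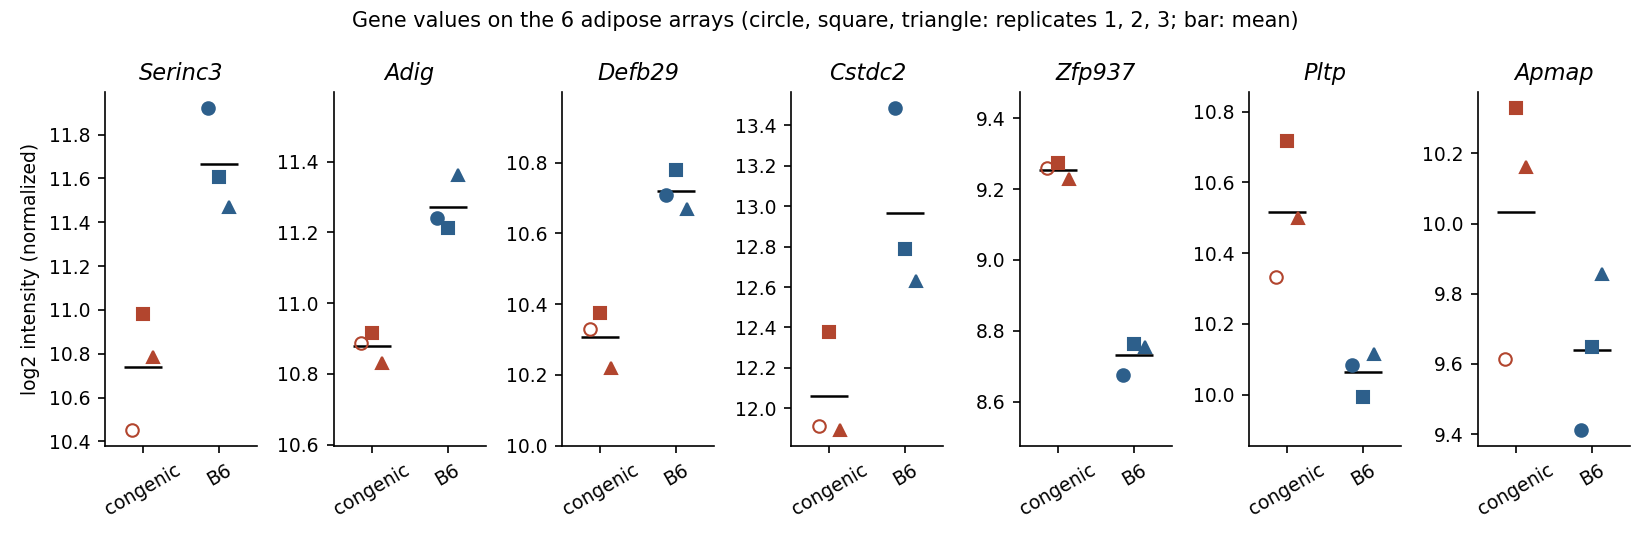
Log2 normalized intensity of 7 genes on the 6 adipose arrays, congenic to the left of B6, with circle, square and triangle for replicates 1, 2 and 3, an open circle for congenic replicate 1 and a bar for the mean of each group. Each panel has its own axis. The groups are apart for Serinc3, Adig, Defb29, Cstdc2, Zfp937 and Pltp, and overlap for Apmap, where congenic replicate 1 lies at 9.61 and the other congenic arrays at 10.33 and 10.16.

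Over all genes, groups did not overlap in 19 genes higher in congenic tissue (5.57%) and in 32 lower (9.38%). The called genes lay along chromosome 2 from Cstdc2 at 148599275 to 148603493 and Zfp937 at 150301666 to 150304026, through Defb29 at 152602062 to 152603390 and Adig at 158565960 to 158571547, to Serinc3 at 163686621 to 163708480, in the coordinates of the files. The stretch from 148.6 to 163.7 Mb that they bound held 199 of the genes measured. By windows from 145, 150, 155 and 160 Mb, each 5 Mb long, 1 of 33, 2 of 97, 1 of 74 and 1 of 68 genes passed.

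Congenic replicate 1 stood apart from the other congenic arrays in genes of the seminal vesicle. Svs4 stood at 11.90, 10.69 and 10.92 on congenic arrays 1, 2 and 3 and at 10.50, 9.13 and 9.80 on B6 arrays 1, 2 and 3. Svs5 stood at 10.72, 9.26 and 9.09 on congenic arrays 1, 2 and 3 and at 8.75, 7.91 and 8.03 on B6 arrays 1, 2 and 3. Replicate 1 was the highest array in both genotypes, and for both genes each congenic value lay above each B6 value. The differences were 1.36 ± 0.56 for Svs4 (limma, adjusted p = 0.594), 1.46 ± 0.50 for Svs5 (adjusted p = 0.348), 1.06 ± 0.44 for Svs2 and 1.01 ± 0.44 for Svs6, and 0 of the 6 measured genes of the list passed (4 at an unadjusted p under 0.05). With all arrays, all 6 were higher by sign, with a median of 1.04. Without congenic replicate 1 the median was 0.55, Svs3a differed by 0.038 and Svs3b turned lower at -0.064. The mean of the list was 10.05, 8.96 and 8.90 on congenic arrays 1, 2 and 3 and 8.78, 8.07 and 8.43 on B6 arrays 1, 2 and 3. When congenic muscle replicate 3, the muscle array with Svs4 at 12.39, was left out as well, the differences were 0.99 for Svs4 and 0.92 for Svs5, given without a test because both arrays were left out for their Svs values. The part of seminal vesicle RNA in the results above was not tested.

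Without congenic replicate 1, 7 genes passed (2.05%), 4 higher (1.17%) and 3 lower (0.880%) in congenic tissue, and 20 had an unadjusted p under 0.05. Serinc3, Adig and Defb29 were called in both fits, and all 5 genes of the full comparison had the same sign in both. Apmap, Pltp, Wfdc15b and Xrn2 passed without this array and not with it. Apmap, which encodes a membrane protein of adipocytes, stood at 9.61, 10.33 and 10.16 on congenic arrays 1, 2 and 3 and at 9.41, 9.65 and 9.86 on B6 arrays 1, 2 and 3. With all arrays the groups overlapped and the difference was 0.40 ± 0.13 (limma, adjusted p = 0.324). Without replicate 1 it was 0.64 (limma, adjusted p = 0.00577). Apmap also passed with array weights and all arrays kept, at 0.45 (limma, adjusted p = 0.0201). It differed by 0.28 without congenic replicate 2 and by 0.27 without B6 replicate 1, and passed in neither. Wfdc15b, a gene of the WFDC inhibitor family that was 2.46 ± 0.10 higher in adipose tissue than in muscle, stood at 11.55, 12.03 and 12.34 on congenic arrays 1, 2 and 3 and at 11.48, 11.88 and 11.58 on B6 arrays 1, 2 and 3. It differed by 0.32 with all arrays and by 0.52 without replicate 1 (limma, adjusted p = 0.0270), and it was the 1 member of 9 measured WFDC and Kunitz inhibitor genes that passed in either fit. Wfdc15b differed by 0.13 without congenic replicate 3 (adjusted p = 0.993 in limma). Xrn2, a nuclear exoribonuclease, differed by 0.093 with all arrays and by 0.20 without replicate 1 (limma, adjusted p = 0.0370). It differed by 0.031 without congenic replicate 2, 0.020 without congenic replicate 3 and 0.060 without B6 replicate 1.

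**Figure D2:**
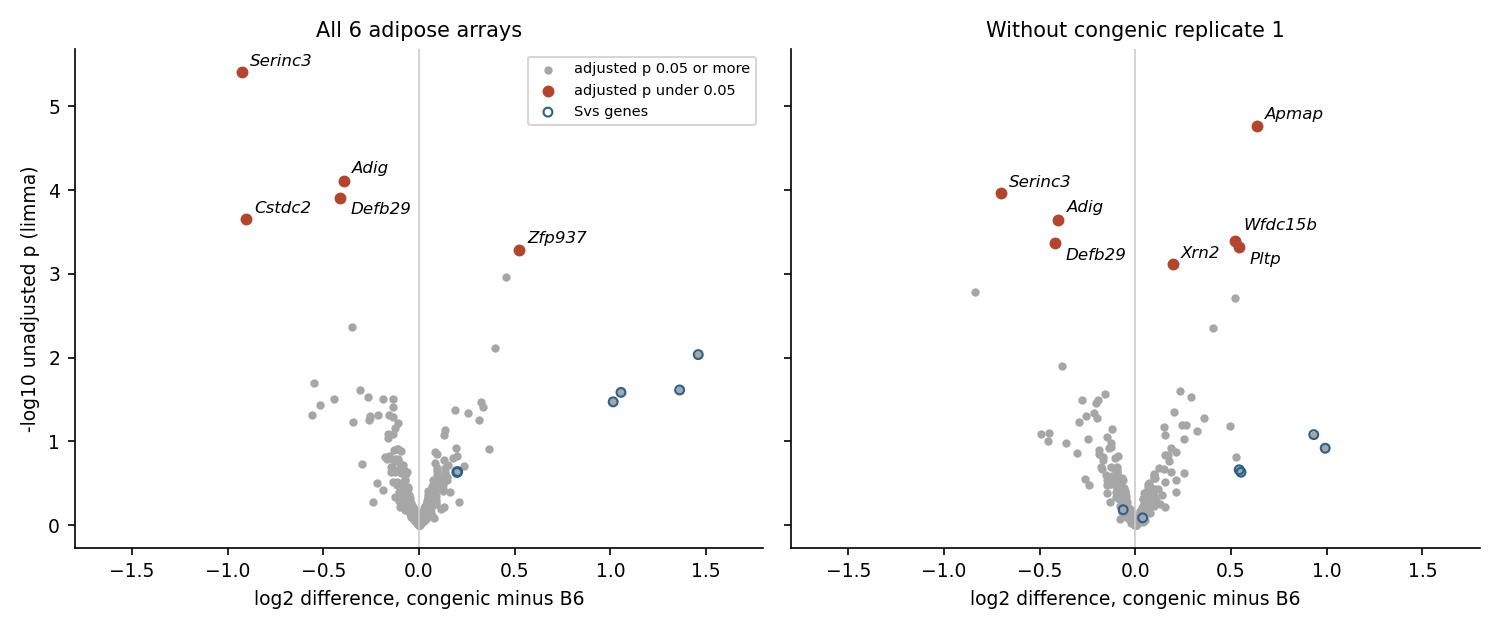
Each point is 1 of 341 genes, with the log2 difference, congenic minus B6, on the horizontal axis and −log10 of the unadjusted limma p on the vertical axis. The left panel uses all 6 adipose arrays and the right panel leaves out congenic replicate 1, and red points have an adjusted p under 0.05 (5 genes on the left, 7 on the right). The 6 Svs genes are ringed. Svs4, Svs5, Svs2 and Svs6 lie farthest to the right in the left panel, and all 6 are short of the threshold in both.

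Of 5 endothelial genes, 8 immune and macrophage genes, 3 skeletal muscle genes, 3 hepatocyte genes and 9 neuronal genes measured, 0 passed in limma, and 0 of these had an unadjusted p under 0.05, beside 1.47% and 8.21% of all genes. Their medians were 0.017, -0.055, 0.012, 0.060 and -0.0069 in that order, beside 0.0019 over all genes. By sign, 7 of the 8 immune and macrophage genes were lower in congenic tissue. Neuronatin (Nnat) differed by -0.30 ± 0.22 and Id1, a transcriptional regulator on the endothelial list, by -0.22 ± 0.21 with groups that did not overlap. Of 9 cell division genes, 7 mitochondrial and redox genes, 11 vesicle traffic genes and 13 genes of RNA processing and translation, 0 passed with all arrays, with 0, 1, 2 and 2 at an unadjusted p under 0.05 and medians of 0.025, -0.075, -0.027 and 0.029. Dynlrb1, a dynein light chain gene of the vesicle traffic list, had the smallest p of these and did not pass at -0.31 ± 0.13 (limma, adjusted p = 0.594). The zinc finger list had a median of 0.046 and the WFDC list one of 0.084. The lower genes short of the threshold with no symbol in the annotation were AF303452 at -0.55 ± 0.22, BC049753 at -0.44 ± 0.19 and AK016198 at -0.26 ± 0.11.

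**Figure D3:**
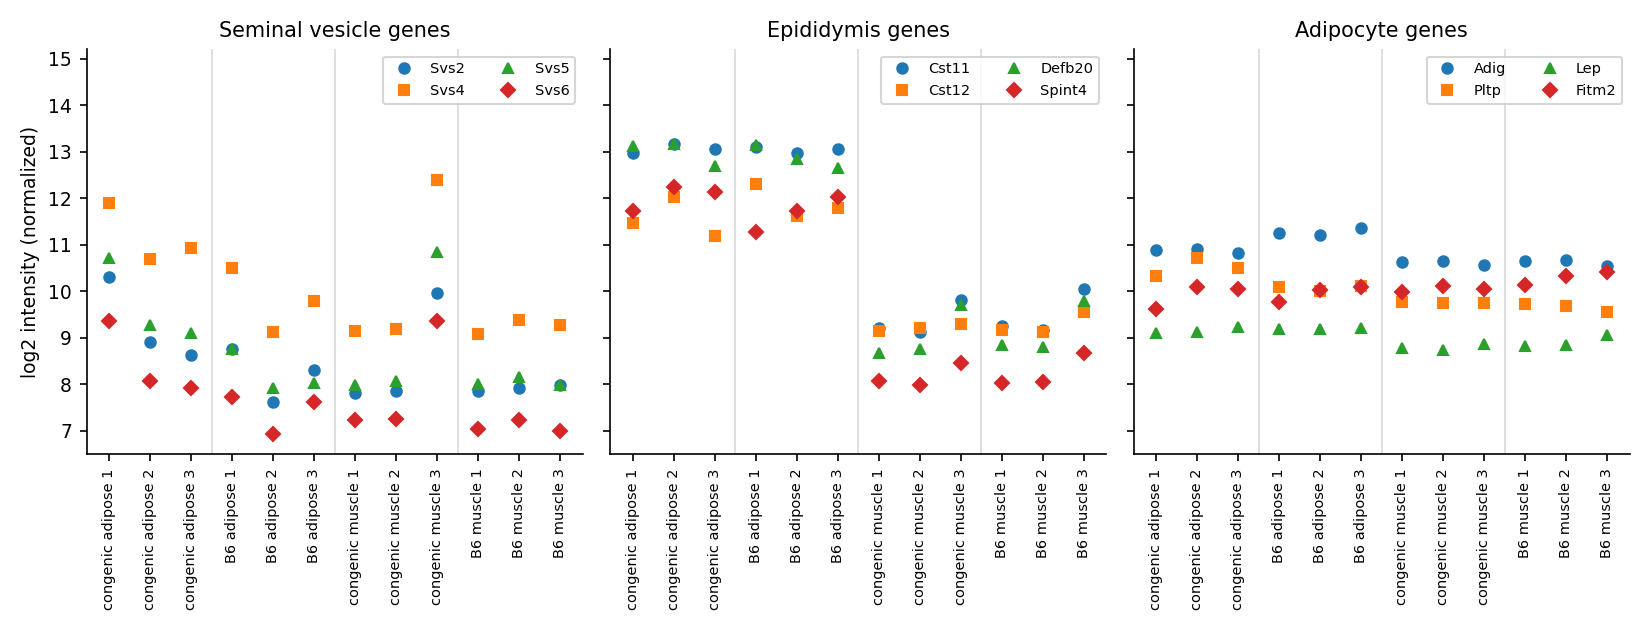
Log2 normalized intensity on the 12 arrays of the slide, congenic to the left of B6 within adipose tissue and within muscle, for 4 seminal vesicle genes, 4 epididymis genes and 4 adipocyte genes. The Svs genes are high on the array of congenic adipose replicate 1 and that of congenic muscle replicate 3 (Svs4 at 11.90 and 12.39), the epididymis genes are high on all 6 adipose arrays, and Adig separates the genotypes in adipose tissue and not in muscle.

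By exon feature, 13 of 3099 passed (0.419%), 12 lower (0.387%) and 1 higher (0.0323%) in congenic adipose tissue, and 128 had an unadjusted p under 0.05 (4.13%). They lay in 6 genes, with 9 of the 13 in Serinc3 and Cstdc2. Without congenic replicate 1, 10 features passed (0.323%), of which 9 were among the 13.

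In Serinc3 all 11 features were lower by sign, 7 passed and 9 had groups that did not overlap. Feature 2, of 163 bases, stood at 9.71, 10.44 and 10.28 on congenic arrays 1, 2 and 3 and at 11.80, 11.81 and 11.84 on B6 arrays 1, 2 and 3. The B6 arrays were within 0.05 of each other and each congenic array was more than 1 log2 unit below them. It fell by 1.68 ± 0.21 (limma, adjusted p = 1.45e-04). The 3′ feature, number 11, of 2308 bases, stood at 9.52, 10.22 and 9.95 on congenic arrays 1, 2 and 3 and at 9.56, 10.08 and 10.18 on B6 arrays 1, 2 and 3, where the groups overlapped. Its difference of -0.048 lay 1.01 above the average of the other features of the gene (limma diffSplice, adjusted p = 0.0143), whose differences ran from -1.68 to -0.18. Feature 3, of 1635 bases, covers feature 4 and differed by -0.18, against -1.40 in feature 4.

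In Cstdc2 2 of 3 features passed, at -1.19 ± 0.26 (limma, adjusted p = 0.0385) and, for the 3′ feature, -1.89 ± 0.31 (adjusted p = 0.00213). The 3′ feature stood at 11.94, 12.30 and 11.72 on congenic arrays 1, 2 and 3 and at 14.01, 13.87 and 13.76 on B6 arrays 1, 2 and 3. It separated the genotypes by more than 1 log2 unit on each array. The 3 features were not shown to differ from each other in their genotype difference (diffSplice, adjusted p = 0.999 for each). Without congenic replicate 1, the 3′ feature passed (adjusted p = 0.0123) and the middle one did not (adjusted p = 0.133).

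In 3 genes that did not pass as a whole, a single feature fell. Eif2s2 encodes the beta subunit of translation initiation factor eIF2, and its feature of 25 bases at 154951685 to 154951709, read by 2 probes, stood at 8.46, 8.72 and 8.59 on congenic arrays 1, 2 and 3 and at 10.68, 11.11 and 11.35 on B6 arrays 1, 2 and 3. The groups were about 2 log2 units apart. It fell by 2.46 ± 0.31 (limma, adjusted p = 1.45e-04), and the other 12 features of the gene ran from -0.68 to 0.39 with a median of 0.13. It differed from them by -2.53 (diffSplice, adjusted p = 4.63e-12), and its log2 differences in brain, liver and muscle were -2.89, -2.56 and -2.17. The 179-base feature that contains these 25 bases differed by 0.39 in adipose tissue and did not pass.

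Tbc1d20 encodes a protein that stimulates the hydrolysis of GTP by Rab GTPases. Its 3′ feature stood at 9.29, 9.65 and 8.89 on congenic arrays 1, 2 and 3 and at 10.29, 9.85 and 10.22 on B6 arrays 1, 2 and 3. The groups did not overlap, and congenic replicate 2 and B6 replicate 2 lay nearest each other. It fell by 0.84 ± 0.16 (limma, adjusted p = 0.00729), against a median of -0.029 in the other 7 features (diffSplice, adjusted p = 0.0242). In Sdcbp2, a gene of the syntenin family that was named after its values had been seen, a feature of 177 bases fell by 0.75 ± 0.16 (limma, adjusted p = 0.0296). It stood at 6.80, 7.42 and 7.07 on congenic arrays 1, 2 and 3 and at 7.77, 7.93 and 7.84 on B6 arrays 1, 2 and 3. The groups did not overlap.

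The 1 feature that rose was number 12 of Pltp, of 69 bases. It stood at 9.91, 10.60 and 10.14 on congenic arrays 1, 2 and 3 and at 9.28, 8.80 and 9.26 on B6 arrays 1, 2 and 3. The groups did not overlap, and it rose by 1.10 ± 0.20 (limma, adjusted p = 0.00511). It was not shown to differ from the rest of the gene (diffSplice, adjusted p = 0.955), and leaving out congenic replicate 1 gave 2 called features in Pltp.

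Features that differed from the rest of their gene numbered 5 of 3072 (0.163%) by diffSplice, with 82 at an unadjusted p under 0.05 (2.67%). Beside those in Eif2s2, Serinc3 and Tbc1d20 they were feature 7 of Rplp0, a ribosomal protein gene on chromosome 5, and feature 5 of Naa20, the catalytic subunit of an N-terminal acetyltransferase. The Rplp0 feature stood at 11.96, 12.15 and 11.98 on congenic arrays 1, 2 and 3 and at 9.12, 11.06 and 11.48 on B6 arrays 1, 2 and 3. B6 replicate 1 stood about 2 log2 units below the other B6 arrays, and the feature itself did not pass at 1.48 ± 0.41 (limma, adjusted p = 0.162). The Naa20 feature stood at 6.66, 7.16 and 6.93 on congenic arrays 1, 2 and 3 and at 7.67, 7.51 and 7.85 on B6 arrays 1, 2 and 3. It did not pass by itself at -0.76 ± 0.21 (limma, adjusted p = 0.162) and lay 0.78 below the average of the gene's other features (diffSplice, adjusted p = 0.0453). This count was 2 without congenic replicate 1 or congenic replicate 2, 1 without congenic replicate 3 or B6 replicate 1 and 3 without B6 replicate 3. Whether bases that differ between the strains lie under the probes was not tested, since the probe sequences were not used here.

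**Figure D4:**
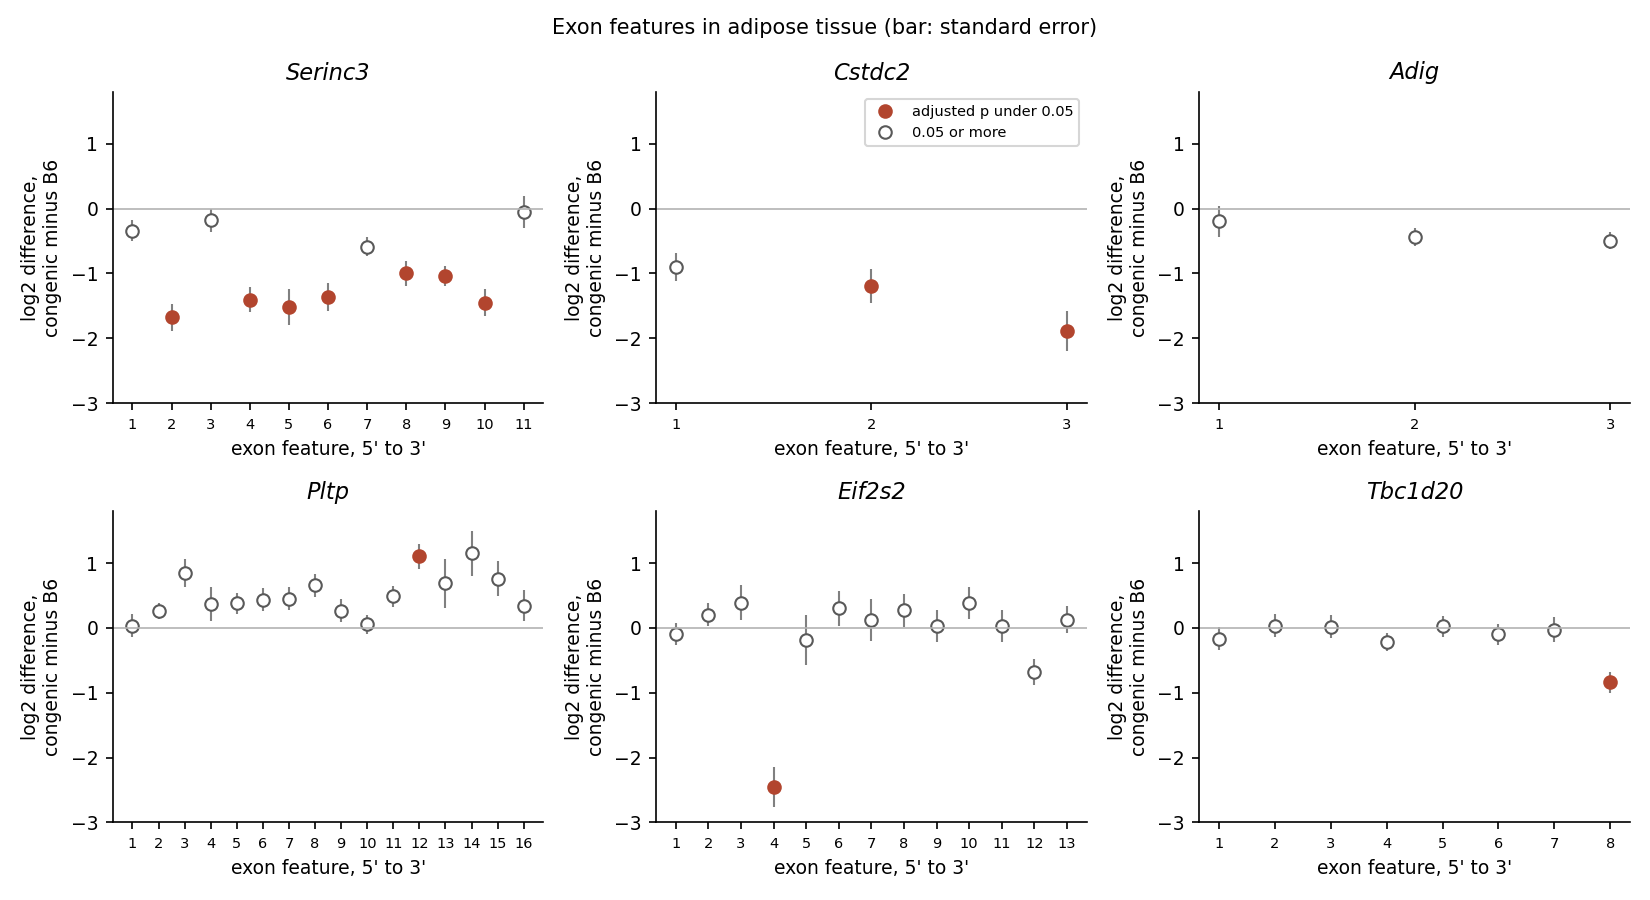
Log2 difference, congenic minus B6, of each exon feature in 6 genes, in 5′ to 3′ order, with bars for the standard error and filled points for an adjusted p under 0.05. Most features of Serinc3 lie between -1.68 and -0.99 while its 3′ feature lies near 0, the features of Pltp lie above 0, and 1 feature stands alone in Eif2s2 (-2.46) and in Tbc1d20 (-0.84).

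The genotype difference of each gene was set beside that in the other tissues, which were measured on separate arrays. Brain and liver arrays lay on another slide, with median raw intensities from 232 to 1237, beside 1075 to 2314 for adipose tissue. On that slide the B6 arrays lay in well rows B and C and the congenic arrays in rows A, B and C. The part of slide, intensity and row in the differences between tissues was not tested. Serinc3 differed by 0.23 in brain, -0.49 in liver and -0.78 in muscle, and in muscle it passed (limma, adjusted p = 0.00586). It was the 1 gene called in both adipose tissue and muscle, where 2 of 341 genes passed (0.587%). None of the 5 adipose genes was among the 2 genes called in brain (0.587%) or the 3 called in liver (0.880%). Adig differed by -0.012 in brain, -0.14 in liver and 8.1e-05 in muscle. Defb29 differed by -0.21, -0.027 and -0.026, Cstdc2 by 0.096, 0.18 and -0.41, and Zfp937 by 0.32, 0.30 and 0.026 in brain, liver and muscle, and none of these passed.

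A test of the adipose difference minus the mean difference of brain, liver and muscle called 0 of 341 genes (0%) in limma, with 18 at an unadjusted p under 0.05 (5.28%). The smallest p belonged to Adig at -0.34 ± 0.09 (adjusted p = 0.235), followed by Cstdc2 at -0.86 ± 0.23 (adjusted p = 0.235), Serinc3 at -0.58 ± 0.17 and Pltp at 0.47 ± 0.14 (adjusted p = 0.237 for both). None of the differences was therefore shown to be particular to adipose tissue.

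**Figure D5:**
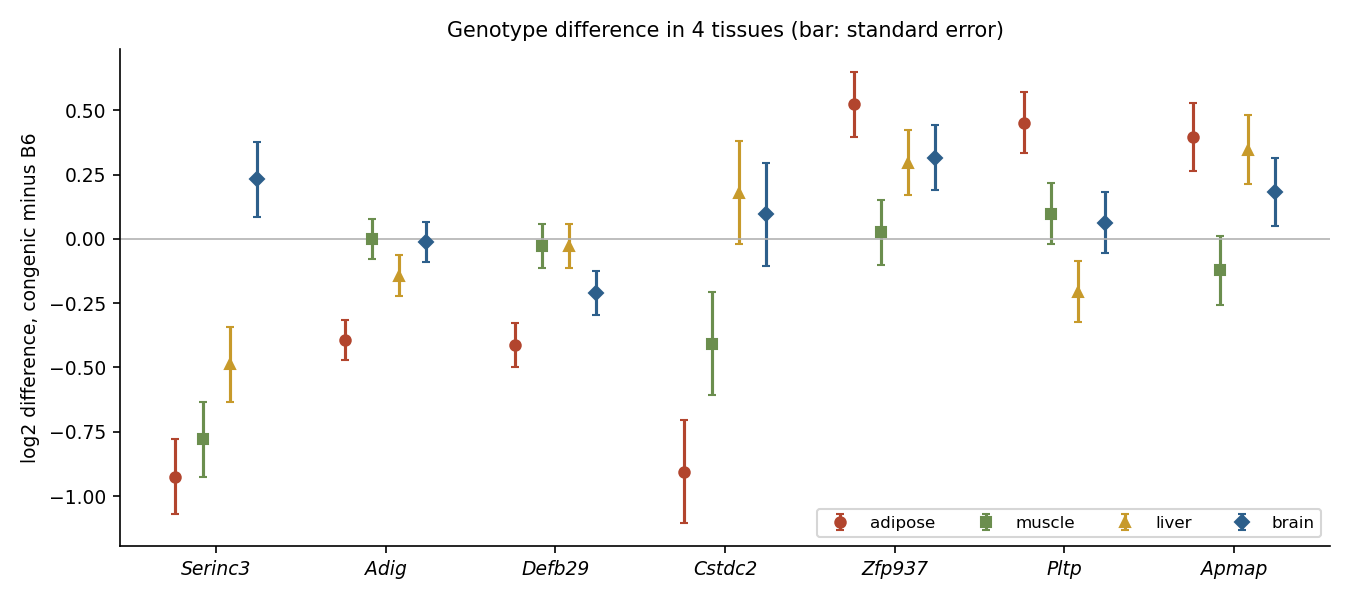
Log2 difference, congenic minus B6, in adipose tissue, muscle, liver and brain for 7 genes, with bars for the standard error. Adig lies at -0.39 in adipose tissue and between -0.14 and 8.1e-05 in the other tissues, and Serinc3 lies below 0 in adipose tissue, muscle and liver and above 0 in brain.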

How the data were processed

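RNA abundance was measured by NimbleGen arrays of custom design, 12 to a slide. Per the file headers and values, the deposited files hold linear fluorescence intensity averaged over the 2 to 14 probes of an exon row, and the column of differences held the perfect-match value in 100% of rows. The submitters' processing notes name RMA, with settings not given in the sources used. The deposited value table holds the authors' processed intensity values per probe, with column medians of 438.6 to 441.3. It served as an alternative. Of the 6 adipose files, 2 matched the table's column of their own replicate best, 4 that of another replicate of their group and 0 another group. In both genotypes replicates 1 and 3 matched each other's column best. Congenic replicate 1 correlated at 0.948 with column 3 and at 0.835 with its own. Replicate numbers here are those of the deposited files, so which array is congenic replicate 1 may differ in the value table.

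Exon intensities of all 24 arrays were corrected with normexp (offset 50), quantile normalized and taken to log2. Rows with identical coordinates were averaged into 3099 features, and median polish gave 1 value per gene. The platform annotation gave a symbol to 483 of 523 transcripts, and 300 of 301 symbols were found in RefSeq of GRCm38.p6, which also gave the promoters. No coordinates were taken across builds. limma 3.58.1 in R 4.3.3 fitted a mean for each of the 8 groups with a shared spread (16 residual degrees of freedom), and diffSplice tested features against the rest of their gene. Benjamini-Hochberg adjustment ran over all genes or features. The number of arrays, 3 per group, limits the precision. Tests were checked on simulated data. Alternatives changed the arrays, background, normalization, summary, filter, spread, blocks and arrays left out.

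Genes named were those past the threshold with and without congenic replicate 1, the 5 nearest to it in each direction, up to 4 of each gene list, and the genes of called features. The comparison, lists and rules were chosen with earlier results of these data known. Figures were drawn with matplotlib 3.10.9. Items withheld are not reported here.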

Additional observations from a re-analysis of the deposited data

Results flagged for a closer look

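Procr, which encodes the endothelial receptor for protein C, stood in opposite directions in adipose tissue and muscle. Each congenic adipose array lay above each B6 adipose array, at a log2 difference of 0.093, and each congenic muscle array lay below each B6 muscle array, at -0.13. Neither passed (limma, adjusted p = 0.995 in adipose tissue and 0.879 in muscle). The difference between the tissues itself was not tested.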

How the results depend on the processing

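Of 20 alternatives, Serinc3 passed in 20 (-1.02 to -0.70), Adig in 18 (lost with only the 6 adipose arrays and with the replicate block), Defb29 in 17, Cstdc2 in 14, Zfp937 in 10 of 19, Pltp in 7 and Apmap in 3, each with the same sign throughout. The count of 5 genes was 3 with only the 6 adipose arrays, 11 with the authors' value table, 3 with the well row as a block, 10 without congenic adipose replicate 1 and congenic muscle replicate 3 together (with Svs4 and Svs5, by whose values the arrays were left out), and 2 to 7 when 1 adipose array was left out (2 without congenic replicate 3 or B6 replicate 1, 3 without B6 replicate 2). The 13 features became 8 with only the 6 adipose arrays, 27 with the 12 arrays of adipose and muscle, 24 without background correction and with median scaling, 81 with array weights, and 9 to 12 when 1 array was left out. The 5 features apart from their gene became 14 with the 6 adipose arrays, 28 with the 12 arrays, and 1 to 4 when 1 array was left out. The 0 genes of the adipose difference against the other tissues became 5 without background correction and with median scaling. They became 2 with the mean of the features, 4 with the value table and 3 with array weights. The count was 1 without both arrays high in Svs genes, a setting chosen by those values. It stayed at 0 when 1 adipose array was left out. The cause of these changes was not tested.

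Among the adipose arrays, replicate numbers coincided with well rows. The deviations of same-numbered congenic and B6 arrays correlated at 0.50, 0.23 and 0.088 over genes. Those of differently numbered arrays correlated at -0.39 to 0.31. The main fit did not pair the samples, and a shared effect of row or number was not tested. With the replicate block 3 genes (Cstdc2, Defb29 and Serinc3) and 7 features passed, and 0 for adipose against the other tissues. The value table gave no exon features, and diffSplice was not run with it, with blocks, weights or filters.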
